A study of Homo sapiens with 12 samples.

Results

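The 10 genes described here are targets of the transcription factor p53 that act in DNA repair, nucleotide and redox metabolism, and secretion: GDF15, TIGAR, RRM2B, RPS27L, ZMAT3, XPC, DDB2, FDXR, POLH and TP53INP1. They were taken by name, through their Ensembl identifiers, from a table of 60669 genes, and all 10 were among the 18720 genes with enough reads to test. RNA was sequenced from 6 established cell lines, which the study names as ovarian cancer lines. Each was given 8 µM quinacrine (QC), an antimalarial drug, or vehicle for 6 h. There was 1 library per line and treatment, and 12 libraries in all. The chemosensitive lines were HeyA8, SK-OV-3 (labelled SKOV3) and OV2008, and the chemoresistant line paired with each was HeyA8-MDR (carboplatin-resistant), SK-OV-3-TR (labelled SKOV3_TR, taxol-resistant) and C13 (labelled OV2008_C13, cisplatin-resistant). A sensitive line and its resistant partner form an isogenic family, so each of the 4 groups (sensitive or resistant, vehicle or QC) held 3 libraries from 3 different lines, and each line is 1 culture of unknown clonality. The comparisons address whether QC acts differently on sensitive and resistant cells.

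p53 is a sequence-specific transcription factor that is held low by MDM2 and accumulates after DNA damage or when ribosome production fails. It then switches on genes for cell cycle arrest, repair, metabolism and death, and it also induces MDM2, which closes a feedback loop. The consensus p53 element holds a pair of decamers, each of which reads purine-purine-purine-C-A/T-A/T-G-pyrimidine-pyrimidine-pyrimidine, separated by a short spacer.

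Sequence around the start sites is shown for the members in which such a decamer was found, because these windows are the part of the regulatory DNA that could be read here. Windows from 250 bases before to 50 bases after each RefSeq transcription start (GRCh38.p14) were searched for the decamer, which is its own reverse complement, so that 1 search covers both strands. Windows were at hand for 8 of the 10 members, 11 windows in all, and 3 windows of 3 genes held a match, against 6.63% of the 35116 windows of all genes. Each sequence is written 5′ to 3′ on the strand of the gene with the decamers in capitals.
DDB2 (chr11:47214975-47215004, plus strand): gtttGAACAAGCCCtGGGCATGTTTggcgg
RPS27L (chr15:63157487-63157576, minus strand): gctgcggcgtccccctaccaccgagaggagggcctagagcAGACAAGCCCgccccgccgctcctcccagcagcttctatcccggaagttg
FDXR (chr17:74872995-74873045, minus strand): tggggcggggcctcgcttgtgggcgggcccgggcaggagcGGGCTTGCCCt
The DDB2 stretch lies just inside the part transcribed from the start site of its window. Its 2 decamers began 6 and 17 bases from that start site, with 1 base between them. The DDB2 gene record itself begins further upstream, at position 47214454. A pair with a spacer of 13 bases or fewer was found in 10 of the 35116 windows. The RPS27L decamer began 59 bases before its start and the FDXR decamer 11 bases before its start. No match was found in the windows of GDF15, TIGAR, ZMAT3, XPC and POLH, which says only that these letters are not in those windows.

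Library totals ranged from 17782556 to 30585059 counts. In these bulk libraries, fewer cells of a kind and less RNA per cell cannot be told apart. The lines differed in lineage markers. PAX8, a Muellerian transcription factor, lay between 234 and 480 CPM (read counts scaled to a common library size after TMM normalization) in the 8 libraries of the HeyA8 and SKOV3 families and between 7.56 and 24.8 CPM in the 4 libraries of OV2008 and C13. The latter 4 held the squamous keratin KRT5 at 2550 to 11210 CPM and TP63 at 108 to 329 CPM, and SOX17 at or near 0. KRT5 was also found in SK-OV-3-TR, at 49.4 CPM with vehicle and 25.6 with QC, but not in SK-OV-3. The other ovarian markers did not set these 4 apart, WT1 lying between 0.999 and 4.79 CPM, MUC16 at or below 10.9 and MSLN between 0.591 and 16.9 over the 12 libraries. EPCAM and CDH1 were at or below 2.93 CPM in the HeyA8 family. One library stood apart. Over genes at least 8-fold different between the vehicle libraries of HeyA8 and HeyA8-MDR and at 10 CPM or more in one of them, the HeyA8 QC library lay 38.4% of the way to HeyA8-MDR for the 32 genes higher there and 51.3% for the 75 genes lower there. The same position in the other 5 QC libraries ran from -4.4% to 31.3%, the highest value being OV2008 for the 41 genes lower in C13. The members' fitted values over all lines are therefore given with and without HeyA8. By the same 8-fold rule the vehicle libraries of the SKOV3 pair were less alike, with 238 genes higher and 167 lower in SK-OV-3-TR. C13 had 34 higher and 41 lower than OV2008. The p53 relatives TP63 and TP73 were found in OV2008 and C13, TP73 at 8.55 to 21.2 CPM, and were below 1 CPM in the other 8 libraries.

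Across the 6 lines QC was followed by higher mRNA for 6 of the 10 genes at unadjusted p under 0.05, the threshold of the study: RPS27L, GDF15, RRM2B, TIGAR, TP53INP1 and DDB2. None fell. In the same fit 7.99% of all genes tested were higher at that threshold and 15.2% passed in either direction. At adjusted p under 0.05 no member and no gene passed with edgeR (quasi-likelihood test, two-sided, Benjamini-Hochberg over all genes tested, as for all adjusted values here), while DESeq2 with the same terms called 3 members, against 4.13% of the 12550 genes it gave an adjusted p, and edgeR without the expression filter 5, against 2% of 39590 genes. The median fitted log2 change of the 10 was 0.46, beside 1e-04 for all genes. In the sensitive lines 3 members passed at the unadjusted threshold (GDF15, TIGAR and RPS27L, background 3.55% higher) and in the resistant lines 2 (RPS27L and RRM2B, background 3.43% higher), and again none had an adjusted p under 0.05 with edgeR. Because there is 1 library per line, these p-values measure the spread between lines.

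**Figure D1:**
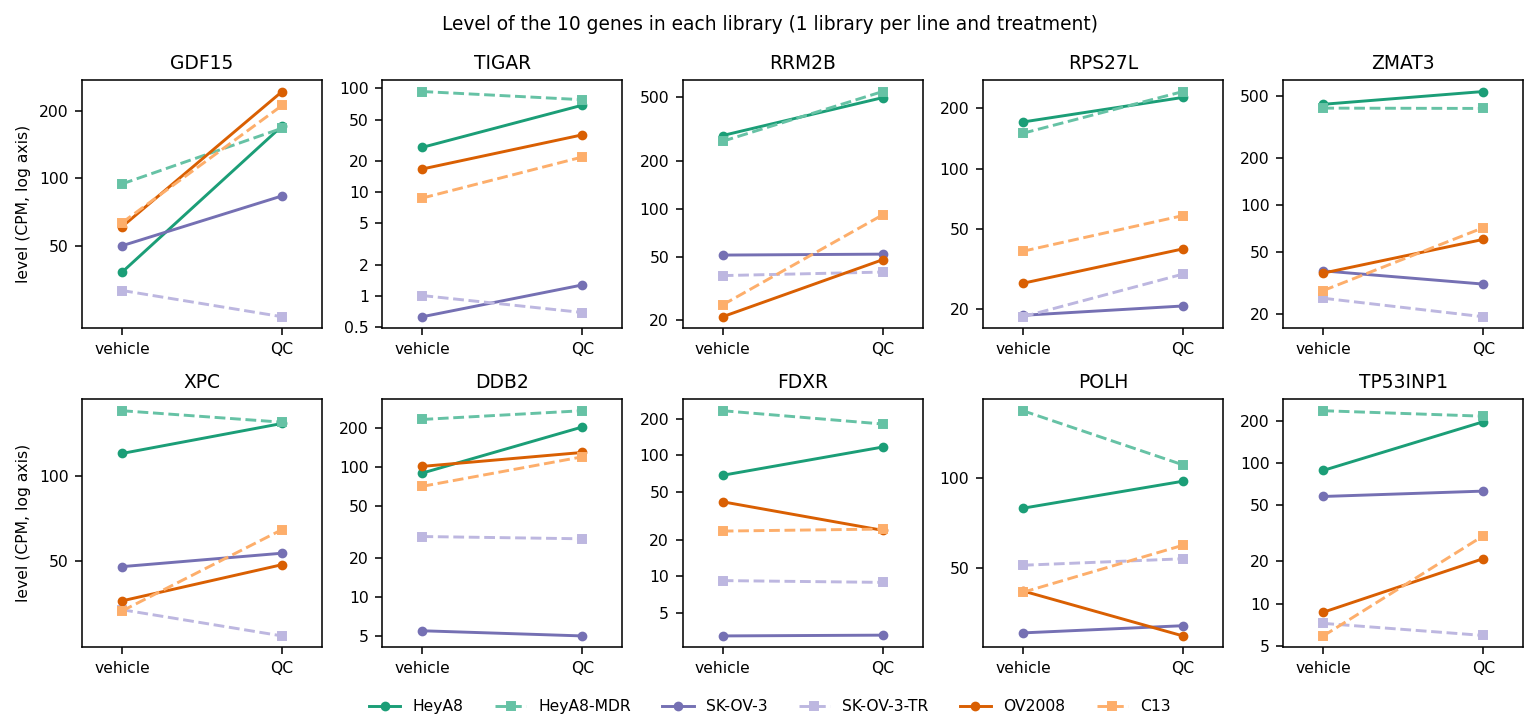
Level of each gene in CPM (log axis, scale set per panel) in the vehicle and QC library of each line. Solid lines with circles are sensitive lines and dashed lines with squares resistant lines, coloured by family, and GDF15 ends higher under QC in 5 of the 6 lines.

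Among secreted products, GDF15, a stress-induced cytokine of the TGF-beta superfamily, had the largest fitted change. Its level went from 38.1 to 171 CPM in HeyA8, from 49.9 to 83.4 in SK-OV-3, from 60.8 to 244 in OV2008, from 94.3 to 167 in HeyA8-MDR and from 63.3 to 211 in C13. In SK-OV-3-TR it was 31.5 CPM with vehicle and 24.1 with QC. The QC libraries of SK-OV-3 and SK-OV-3-TR lay within or below the vehicle range, and those of the other 4 lines lay above every vehicle library. The fitted log2 change was 1.20 ± 0.28 over all lines (adjusted p = 0.148), 1.64 ± 0.37 in the sensitive lines (adjusted p = 0.422) and 0.74 ± 0.37 in the resistant lines (adjusted p = 0.823). The resistant value was 0.21 without C13 and 1.30 without SK-OV-3-TR. Without HeyA8 the change over all lines was 0.999 ± 0.276 (unadjusted p = 0.00340 in the edgeR fit), and without both HeyA8 lines it was 1.04 ± 0.35.

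Among the genes of nucleotide and carbon metabolism, RRM2B, the p53-inducible small subunit of ribonucleotide reductase, rose from 288 to 497 CPM in HeyA8, from 265 to 543 in HeyA8-MDR, from 21.0 to 47.8 in OV2008 and from 24.9 to 91.5 in C13. In SK-OV-3 it was 51.2 and 51.9 CPM, and in SK-OV-3-TR 38.0 and 40.0. Both lines of the SKOV3 family stayed within 1.05-fold of their vehicle, while the 4 other lines went up by 1.73-fold to 3.66-fold. The fitted change over all lines was 0.83 ± 0.21 on the log2 scale (adjusted p = 0.157), with 0.66 ± 0.31 in the sensitive lines (adjusted p = 0.755) and 0.998 ± 0.312 in the resistant lines (adjusted p = 0.816). The resistant value had an unadjusted p of 0.00796 in that edgeR fit, 0.103 without C13 (log2 change 0.55) and 0.0576 without the HeyA8 family. Without HeyA8 the change over all lines was 0.84 ± 0.24.

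TIGAR, a fructose bisphosphatase that diverts sugar from glycolysis, spanned the widest range of levels among the members. It lay between 0.627 and 1.27 CPM in the SKOV3 family, which is 13 to 34 counts per library, and at 93.2 CPM in HeyA8-MDR with vehicle. With QC it went from 26.99 to 68.8 CPM in HeyA8, from 16.7 to 35.6 in OV2008 and from 8.76 to 21.8 in C13. HeyA8-MDR had 93.2 CPM with vehicle and 77.7 with QC. The fitted log2 change was 0.75 ± 0.25 over all lines (adjusted p = 0.198), 1.18 ± 0.31 in the sensitive lines (adjusted p = 0.613) and 0.29 ± 0.32 in the resistant lines (adjusted p = 0.901), and without C13 the resistant value was -0.35. Without HeyA8 the change was 0.59 ± 0.26 over all lines (unadjusted p = 0.0443 in edgeR) and 1.06 ± 0.41 in the sensitive lines (unadjusted p = 0.0215 in edgeR). In the GENCODE annotation lifted to GRCh37, 18.7% of the 50-base words of TIGAR transcripts also occur in another gene model on the same strand (ENSG00000285901). Some TIGAR reads may therefore be missing from its counts.

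FDXR, the mitochondrial ferredoxin reductase, showed no common direction. It went from 68.1 to 117 CPM in HeyA8 and was at 41.2 and 23.9 CPM in OV2008, at 232 and 180 in HeyA8-MDR, and at 23.6 and 24.5 in C13 with vehicle and QC. The SKOV3 family held 3.22 and 3.27 CPM in SK-OV-3 and 9.21 and 8.91 in SK-OV-3-TR. The fitted log2 change over all lines was -0.06 ± 0.17 (adjusted p = 0.903) and -0.24 ± 0.15 without HeyA8. The value in the sensitive lines, 0.01 ± 0.27, became -0.44 ± 0.27 without HeyA8.

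Among the DNA repair genes, DDB2, which recognizes ultraviolet lesions in chromatin, rose from 90.5 to 205 CPM in HeyA8, from 102 to 130 in OV2008, from 234 to 273 in HeyA8-MDR and from 71.5 to 121 in C13. In SK-OV-3 it was 5.52 and 5.04 CPM and in SK-OV-3-TR 29.4 and 28.2. DDB2 was thus higher under QC in the lines of the HeyA8 and OV2008 families and slightly lower in both lines of the SKOV3 family. The fitted change over all lines was 0.40 ± 0.17 (adjusted p = 0.281) and 0.24 ± 0.15 without HeyA8 (unadjusted p = 0.125 in the edgeR fit). Without C13 it was 0.32 ± 0.18 (unadjusted p = 0.104 in edgeR), and in neither case did it pass.

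XPC, the damage sensor that starts global excision repair, went from 33.1 to 64.5 CPM in C13, from 36.0 to 48.4 in OV2008 and from 120 to 154 in HeyA8. It was 47.6 and 53.1 CPM in SK-OV-3, 33.4 and 26.98 in SK-OV-3-TR, and 171 and 155 in HeyA8-MDR. The fitted log2 change over all lines, 0.24 ± 0.16, did not pass (adjusted p = 0.479), and without HeyA8 it was 0.22 ± 0.17. Antisense gene models cover 24.6% of XPC exon bases in the same annotation, and whether the counting used strand is not given in the sources used here.

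POLH, the translesion polymerase that copies past ultraviolet dimers, was at 168 and 110 CPM in HeyA8-MDR and 41.7 and 29.5 in OV2008, with vehicle and QC, but at 79.0 and 97.3 in HeyA8 and 41.3 and 59.4 in C13. The SKOV3 family hardly moved, at 30.2 and 31.9 CPM in SK-OV-3 and 50.9 and 53.5 in SK-OV-3-TR. Its fitted log2 change was -0.02 ± 0.15 over all lines (adjusted p = 0.968) and -0.09 ± 0.17 without HeyA8. POLH and FDXR were the members with a fitted value below 0 over all lines, and both stayed within their error of 0.

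RPS27L, a ribosomal protein S27 paralog that binds MDM2, had the smallest p of the 10. It went from 171 to 226 CPM in HeyA8, from 26.9 to 39.9 in OV2008, from 150 to 242 in HeyA8-MDR, from 18.3 to 29.9 in SK-OV-3-TR and from 38.8 to 58.4 in C13. SK-OV-3 had the narrowest step, from 18.6 to 20.7 CPM. RPS27L and RRM2B were higher under QC in 6 of 6 lines, as were 4.13% of all genes tested, and RPS27L alone among the members passed at unadjusted p under 0.05 in both the sensitive and the resistant lines. The fitted log2 change was 0.52 ± 0.11 over all lines (adjusted p = 0.141), 0.38 ± 0.17 in the sensitive lines (adjusted p = 0.739) and 0.66 ± 0.17 in the resistant lines (adjusted p = 0.816). The sensitive value rests close to the threshold, with an unadjusted p of 0.0454 in that edgeR fit and, with 1 line left out of the 6, from 0.0491 without C13 to 0.234 without OV2008, C13 being the only line without which it still passed. Over all lines the change was 0.54 ± 0.13 without HeyA8. Its paralog RPS27, a ribosomal protein gene, had a fitted change of 0.23 ± 0.12 over all lines (adjusted p = 0.398), and 1.74% of the 50-base words of RPS27L occur in other genes.

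ZMAT3, an RNA-binding protein, was far higher in the HeyA8 family than elsewhere. It was at 442 and 534 CPM in HeyA8 and 418 and 416 in HeyA8-MDR, and between 19.2 and 71.6 CPM in the other 8 libraries. It rose from 36.6 to 60.2 CPM in OV2008 and from 28.3 to 71.6 in C13, while SK-OV-3 went from 37.9 to 31.2 and SK-OV-3-TR from 25.3 to 19.2. The fitted change over all lines, 0.27 ± 0.20, did not pass (adjusted p = 0.544), and it was 0.27 ± 0.22 without HeyA8.

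TP53INP1, a p53-induced nuclear and autophagy protein, had the largest change of any member in a single line. It went from 5.89 to 30.3 CPM in C13, from 8.68 to 20.9 in OV2008 and from 88.4 to 196 in HeyA8. HeyA8-MDR was at 235 and 215 CPM, SK-OV-3 at 57.7 and 63.0, and SK-OV-3-TR at 7.24 and 5.94. The log2 change ran from -0.28 in SK-OV-3-TR to 2.35 in C13, and C13 alone set much of the fitted value in the resistant lines, which was 0.61 ± 0.44 with it (adjusted p = 0.857) and -0.21 without it. Over all lines the fitted change was 0.73 ± 0.29 (adjusted p = 0.267), and its unadjusted p in the edgeR fit rose from 0.0271 to 0.0696 without HeyA8 (log2 change 0.63 ± 0.32), to 0.0887 without C13 and to 0.0566 without OV2008. TP53INP2, the related gene, had 0.48 ± 0.25 (adjusted p = 0.376).

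**Figure D2:**
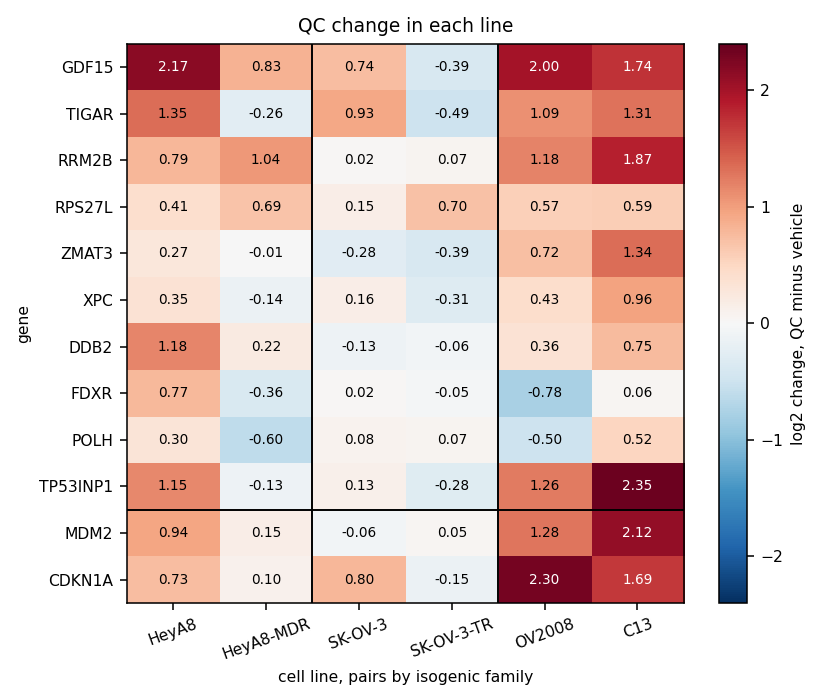
Log2 change, QC minus vehicle, of each member and of MDM2 and CDKN1A in each line, from TMM-scaled CPM with a prior count of 2. Vertical rules part the families, and C13 has the highest median of the 10 (1.13) and SK-OV-3-TR the lowest (-0.17).

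Read by line, the 10 genes rose in different numbers. The log2 change was above 0 for 10 of 10 in HeyA8 (median 0.78) and C13 (median 1.13), for 8 in OV2008 (median 0.64) and in SK-OV-3 (median 0.10), for 4 in HeyA8-MDR (median -0.07) and for 3 in SK-OV-3-TR (median -0.17). Between 46% and 49.5% of all genes were above 0 in each line. In the HeyA8 QC library 4 members (GDF15, RRM2B, RPS27L and ZMAT3) exceeded the vehicle level of both HeyA8 and HeyA8-MDR, and the other 6 lay between those levels. For these 6 a shift toward HeyA8-MDR and a QC change cannot be told apart in that library. The check used vehicle levels alone, so it does not settle this for the other 4 either. RRM2B and RPS27L, at 497 and 226 CPM in HeyA8 with QC, were at 543 and 242 in HeyA8-MDR with QC. GDF15 was at 171 and 167 CPM in these 2 QC libraries, and ZMAT3 at 534 and 416. A shift toward HeyA8-MDR under QC was not tested.

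**Figure D3:**
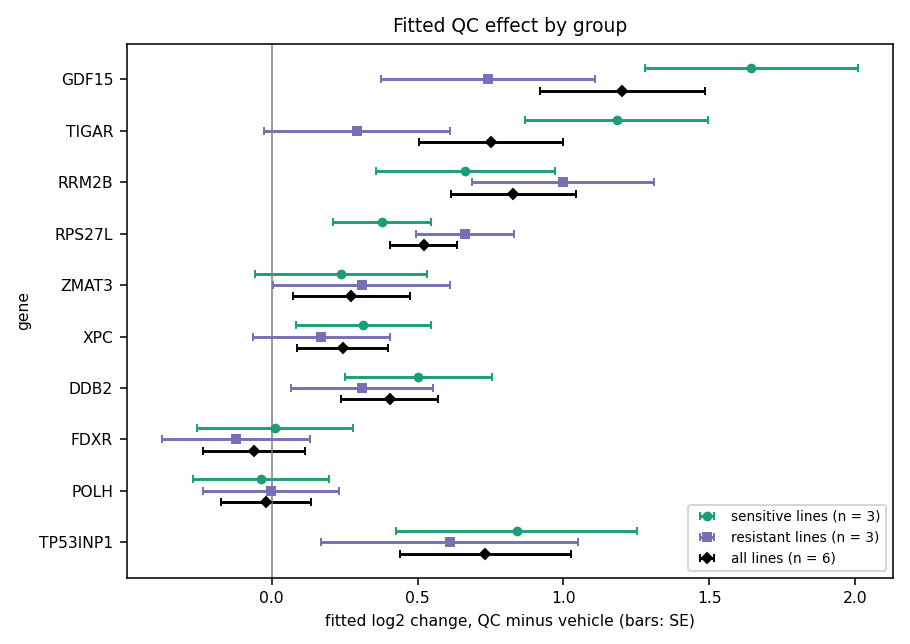
Fitted log2 change of each gene, QC minus vehicle, with SE bars, in sensitive lines (circles, n = 3), resistant lines (squares, n = 3) and all lines (diamonds, n = 6). The SE bars of both groups overlap for 8 of the genes; those of GDF15 and TIGAR do not.

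Resistant lines were next set against sensitive ones in a test of the 2 QC effects, and no member passed at unadjusted p under 0.05, against 1.16% of all genes. That test did not pair the QC effect of each resistant line with that of its sensitive partner. The difference ranged from -0.90 ± 0.51 for GDF15 (adjusted p = 0.9998) to 0.33 ± 0.44 for RRM2B. The GDF15 difference moved to -0.33 without SK-OV-3-TR and to -1.42 without C13. TIGAR had -0.89 ± 0.44, unadjusted p = 0.0689 in the edgeR fit, and moved to -0.52 without HeyA8-MDR and -1.53 without C13. With the isogenic family by QC interaction as the block GDF15 had an unadjusted p = 0.00359 and TIGAR an unadjusted p = 0.0416 in edgeR, and both passed unadjusted, against 2.34% of all genes in that fit. With vehicle alone, no member differed between resistant lines and their partners at unadjusted p under 0.05, against 3.77% of 16091 genes. DDB2 had the highest value, 1.12 ± 0.62 (adjusted p = 0.975), and TP53INP1 the lowest, -0.68 ± 0.90 (adjusted p = 0.977). Per kilobase of exon, the median vehicle level was highest for GDF15 (26.5 CPM per kb) and lowest for TIGAR (1.35 CPM per kb), using the union of exons of each gene. The TIGAR level has the limit on its counts given above.

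The line values were then grouped by isogenic family in a fit chosen after the data were seen and after the 5 comparisons above, none of which gave a member with adjusted p under 0.05 with edgeR and the expression filter. In this fit the sensitive and the resistant line of a family serve as its replicates, with 3 residual degrees of freedom. Its error thus includes the difference in QC effect between partners, pooled over families. In the OV2008 family 4 members passed at adjusted p under 0.05, against 2.88% of all genes. Of the 10, 8 had an unadjusted p under 0.05 there, against 18.9% of genes. The 4 were RRM2B with a log2 change of 1.54 ± 0.20 (adjusted p = 0.0105), GDF15 with 1.87 ± 0.33 (adjusted p = 0.0251), ZMAT3 with 1.03 ± 0.19 (adjusted p = 0.0290) and TP53INP1 with 1.82 ± 0.34 (adjusted p = 0.0290). Each of the 4 was higher in both lines. Without OV2008 or without C13 none of the 4 kept an adjusted p under 0.05 (edgeR), while the log2 changes stayed above 0: without OV2008 they were 1.87 for RRM2B, 1.74 for GDF15, 1.34 for ZMAT3 and 2.36 for TP53INP1. Without C13 they were 1.18, 1.998, 0.71 and 1.26 in the same order. In the HeyA8 and SKOV3 families no gene passed at that level with edgeR, where 4 members and 1 member had an unadjusted p under 0.05 against 19.7% and 4.55% of genes.

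**Figure D4:**
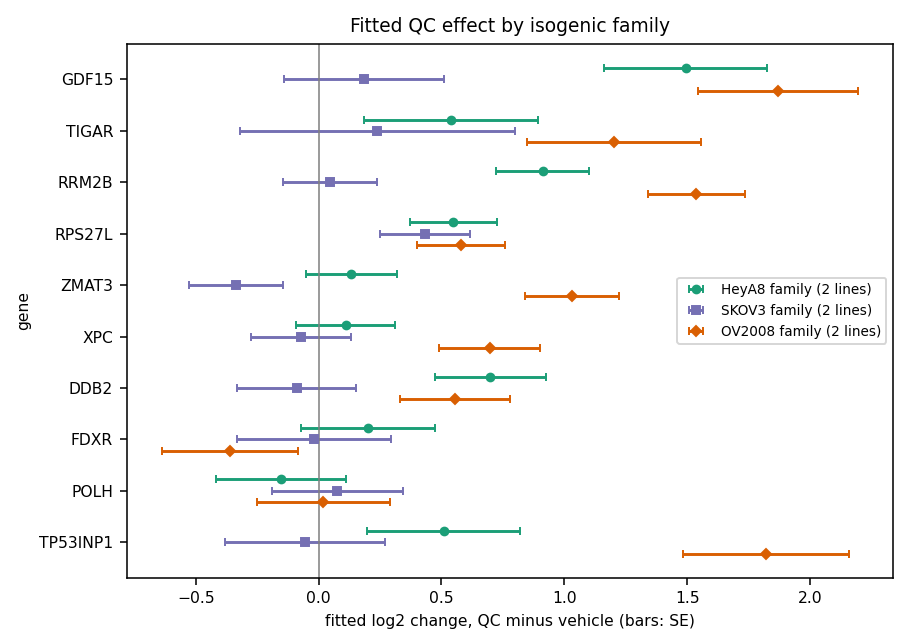
Fitted log2 change of each gene, QC minus vehicle, with SE bars, in the HeyA8 (circles), SKOV3 (squares) and OV2008 (diamonds) families of 2 lines each. RRM2B lies at 0.05 in the SKOV3 family, 0.91 in the HeyA8 family and 1.54 in the OV2008 family, and RPS27L lies between 0.43 and 0.58 in all.

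In the test of any difference between families, RRM2B, ZMAT3, TP53INP1 and GDF15 had unadjusted p under 0.05, as did 14% of all genes, and no gene passed after adjustment (edgeR). Between the OV2008 and SKOV3 families GDF15, RRM2B, ZMAT3, XPC and TP53INP1 differed at unadjusted p under 0.05, against 13% of genes, and none of the 10 after adjustment (smallest adjusted p = 0.0884, edgeR), against 0.0534% of genes. RPS27L had an unadjusted p = 0.837 in the edgeR test of any difference and 0.580 in that of OV2008 against SKOV3. It had fitted changes of 0.55 ± 0.18, 0.43 ± 0.18 and 0.58 ± 0.18 in the HeyA8, SKOV3 and OV2008 families. The OV2008 family also held KRT5, TP63 and TP73 at the levels given above, and their part in these values was not tested.

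The closest p53 genes of other roles moved as follows. MDM2, the p53 ubiquitin ligase, went from 485.5 to 932 CPM in HeyA8, from 51.3 to 125 in OV2008 and from 35.1 to 153 in C13. It was 505 and 561 CPM in HeyA8-MDR, 72.7 and 69.7 in SK-OV-3, and 62.3 and 64.6 in SK-OV-3-TR. Its fitted change over all lines was 0.74 ± 0.25 (adjusted p = 0.211). CDKN1A, the p21 cell cycle inhibitor, went from 68.8 to 339 CPM in OV2008, from 125 to 404 in C13, from 461 to 768 in HeyA8 and from 21.1 to 36.7 in SK-OV-3. It was 543 and 580.1 CPM in HeyA8-MDR and 35.3 and 31.8 in SK-OV-3-TR, with a fitted change of 0.91 ± 0.27 over all lines (adjusted p = 0.180). Of 27 other p53 targets in arrest, death and metabolism, CDKN1A among them, 8 rose and 1 fell over all lines at unadjusted p under 0.05, with a median of 0.28. Of all genes, 7.99% were higher and 7.18% lower at that threshold, which is also the background for the lists that follow. Those that rose included PMAIP1 (0.996 ± 0.246, adjusted p = 0.153), a BH3-only death gene, TNFRSF10B (0.50 ± 0.15, adjusted p = 0.180), a TRAIL receptor, FAS (0.55 ± 0.17, adjusted p = 0.180), a death receptor, and AEN (0.41 ± 0.13, adjusted p = 0.197), an apoptotic nuclease. PANK1 (0.52 ± 0.19, adjusted p = 0.233), a coenzyme A synthesis enzyme, and ISCU (0.44 ± 0.16, adjusted p = 0.217), an iron-sulfur scaffold, also rose, and ALDH4A1, a proline catabolism enzyme, fell by 0.87 ± 0.20 on the log2 scale (adjusted p = 0.141). Of the p53 controllers, MDM4 fell by 0.78 ± 0.17 on the log2 scale (adjusted p = 0.141) and the phosphatase PPM1D rose by 0.56 ± 0.17 (adjusted p = 0.186). GADD45A had 0.28 ± 0.17 and PLK3 0.32 ± 0.19, and neither passed.

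The partners that work with the members mostly did not pass. Of 15 excision repair partners of XPC and DDB2, 1 rose over all lines, the nuclease subunit ERCC1 (0.38 ± 0.15, adjusted p = 0.269), and 14 did not pass, among them RAD23B (0.21 ± 0.11) and XPA (-0.26 ± 0.14). Of 8 translesion partners of POLH, 1 rose, the ubiquitin-conjugating enzyme UBE2B (0.27 ± 0.12, adjusted p = 0.303), while REV3L had 0.41 ± 0.23 and REV1 -0.16 ± 0.12. None of 9 nucleotide and redox partners passed over all lines with edgeR, RRM1 having -0.12 ± 0.12, RRM2 0.05 ± 0.19, FDX1 0.30 ± 0.17 and TKT 0.19 ± 0.12. RRM2B thus rose at the unadjusted threshold while the other ribonucleotide reductase subunits did not pass. The difference between these genes was not tested. By line, RRM2 had log2 changes of 0.61 in SK-OV-3, 0.62 in SK-OV-3-TR and 0.48 in HeyA8-MDR. It had -0.12 in HeyA8, -0.60 in OV2008 and -0.67 in C13. GDF15 is also a known target of the integrated stress response, in which ATF4 and CHOP (DDIT3) act. Of 8 genes of that list 3 rose over all lines and 2 fell: ATF3 had 1.47 ± 0.36 (adjusted p = 0.153), PPP1R15A 0.64 ± 0.20 (adjusted p = 0.194), DDIT3 0.58 ± 0.19 (adjusted p = 0.203) and VLDLR fell by 0.38 ± 0.15 on the log2 scale (adjusted p = 0.260). The other gene that fell was ATF4 itself, named here after its value was seen (-0.39 ± 0.16, adjusted p = 0.271). By line, 7 of the 8 genes lay above their vehicle level in HeyA8-MDR (median log2 change 0.36), 6 did so in OV2008 (0.15) as well as SK-OV-3 (0.69), 4 in C13 (-0.07) and 3 in HeyA8 (-0.73). In SK-OV-3-TR all 8 lay below it (-0.66). GDF15 had its highest fold in HeyA8 (4.49), where the list's median was below 0 and ATF3 also had its highest fold (7.44). The 3 genes above their vehicle level in HeyA8 were ATF3, DDIT3 and PPP1R15A. The HeyA8 QC library is also the one that lay between HeyA8 and HeyA8-MDR in the check of libraries. The part of this list in the GDF15 values was not tested.

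The genes whose 6 line changes were most like the median change of the members, among 12014 genes at a mean of 4 CPM or more, were CHP1P2 (Pearson r = 0.99), ING4 (0.99), APLP1 (0.98), PAQR7 (0.98) and NOMO3 (0.98). These correlations run over 6 lines that form 3 families and are given as a description.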

How the data were processed

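Libraries were made from polyA RNA with a TruSeq kit, and the authors deposited raw counts of reads per Ensembl gene. The submitters' processing notes name STAR 2.7.3a, HTSeq 0.6.1p1 and GRCh38.p13, whereas the methods name TopHat and hg19 with HTSeq, so the aligner and build behind the counts are uncertain. Symbols were paired through Ensembl identifiers for 58663 of 60669 rows. Genes were kept with edgeR 4.0.16 (R 4.3.3; filterByExpr over the 4 groups, minimum count 10, minimum total 15), scaled by TMM and tested with the quasi-likelihood test, two-sided. The cell line was a block. The fit with separate QC effects in sensitive and resistant lines had 4 residual degrees of freedom. The fit over all lines used the same block with a common QC effect. Vehicle libraries were tested with a family block (2 residual degrees of freedom). The fit by family had 3 residual degrees of freedom. Standard errors are the fitted change divided by the square root of F. Numbers pair libraries through the cell line, and same-line libraries deviated from their group means with correlations of 0.893 to 0.929. Log2 changes per line used a prior count of 2 and have no test. The members and gene lists were chosen with earlier results of these data known. Named genes were the members, MDM2, CDKN1A, RPS27, RRM1, RRM2, FDX1, TP53INP2 and, per list, the 3 genes with the smallest p over all lines and those passing in either group, up to 6; some genes this rule names are not reported here. The minimum of 10 CPM in the check of libraries, and the fit by family, were chosen after seeing the data. Alternatives were other scalings and filters, DESeq2 1.42.0, no block and leaving out each line. The fits by group and over all lines were tested on simulated data, and those by family and of vehicle levels were not. The simulation gave each changed gene the same fold in every line. It therefore did not cover lines that differ in their QC effect.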

Additional observations from a re-analysis of the deposited data

Results flagged for a closer look

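The QC effect differed between the 3 isogenic families for 4 of the 10 genes at unadjusted p under 0.05 in an edgeR quasi-likelihood test of any difference, in a fit chosen after seeing the data. The p was 0.00101 for RRM2B (adjusted p = 0.147), 0.00158 for ZMAT3 (adjusted p = 0.162), 0.00707 for TP53INP1 (adjusted p = 0.219) and 0.0108 for GDF15 (adjusted p = 0.240), with 14% of all genes under the same threshold and none after adjustment. ZMAT3 had fitted log2 changes of 0.13 ± 0.18 in the HeyA8 family, -0.34 ± 0.19 in the SKOV3 family and 1.03 ± 0.19 in the OV2008 family.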

How the results depend on the processing

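Counts refer to p under 0.05, unadjusted or adjusted over all genes tested, and single-gene values are log2 changes whose sign turned. The causes were not tested. Depth limits TIGAR in the SKOV3 family most, with 13 to 34 counts per library. Scaling to RPLP0 moved the median of all genes by 0.48 in C13, 0.47 in OV2008, 0.29 in SK-OV-3 and -0.11 in HeyA8-MDR. Library size alone moved it by 0.12 in C13, -0.13 in HeyA8-MDR and -0.12 in SK-OV-3-TR. With RPLP0 the number of members above 0 went from 8 to 10 in SK-OV-3 and from 3 to 1 in SK-OV-3-TR, and with library size alone from 3 to 1 in SK-OV-3-TR. With DESeq2 size factors it went from 8 to 7 in SK-OV-3 and from 4 to 5 in HeyA8-MDR.

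No expression filter gave 35 genes adjusted (from 0), 1 member adjusted (from 0), 4 members unadjusted (from 2) for resistant lines. No expression filter gave 195 genes adjusted (from 0), 1918 genes unadjusted (from 1234), 3 members adjusted (from 0), 5 members unadjusted (from 3) for sensitive lines. No expression filter gave 791 genes adjusted (from 0), 5 members adjusted (from 0) for all lines. No expression filter gave 5 genes adjusted (from 0), 501 genes unadjusted (from 217), 2 members unadjusted (from 0) for resistant minus sensitive. No expression filter gave 146 genes adjusted (from 0), 1583 genes unadjusted (from 606), 1 member unadjusted (from 0) for vehicle level. No replicate block gave 23 genes unadjusted (from 1128), 0 members unadjusted (from 2) for resistant lines, and turned TIGAR -0.039. No replicate block gave 30 genes unadjusted (from 1234), 1 member unadjusted (from 3) for sensitive lines, and turned POLH 0.073. No replicate block gave 117 genes unadjusted (from 2840), 1 member unadjusted (from 6) for all lines, and turned FDXR 0.022, RRM2 -0.26. No replicate block gave 6 genes unadjusted (from 217) for resistant minus sensitive, and turned POLH -0.29, ZMAT3 -0.17. Without the HeyA8 family gave 398 genes unadjusted (from 1128), 1 member unadjusted (from 2) for resistant lines, and turned POLH 0.29. Without the HeyA8 family gave 653 genes unadjusted (from 1234) for sensitive lines, and turned FDXR -0.43. Without the HeyA8 family gave 1768 genes unadjusted (from 2840) for all lines, and turned POLH 0.036, RRM2 -0.034. Without the HeyA8 family turned DDB2 0.23, FDXR 0.43, TP53INP1 0.41, XPC 0.045 for resistant minus sensitive. At least 10 counts in every library turned POLH 0.0040 for resistant lines. At least 10 counts in every library gave 120 genes unadjusted (from 217) for resistant minus sensitive. At least 10 counts in every library turned XPC 4.4e-05 for vehicle level. DESeq2 turned POLH 0.010 for resistant lines. DESeq2 gave 31 genes adjusted (from 0), 1 member adjusted (from 0) for sensitive lines, and turned FDXR -0.0045. DESeq2 gave 518 genes adjusted (from 0), 3 members adjusted (from 0) for all lines. DESeq2 gave 1 gene adjusted (from 0) for resistant minus sensitive. DESeq2 gave 41 genes adjusted (from 0), 1058 genes unadjusted (from 606) for vehicle level. DESeq2 size factors in place of TMM turned POLH 0.0098 for resistant lines. DESeq2 size factors in place of TMM turned FDXR -0.0018 for sensitive lines. DESeq2 size factors in place of TMM gave 64 genes adjusted (from 0) for HeyA8 family. Only the 6 libraries of the group turned FDXR -0.00092 for sensitive lines. Library size alone in place of TMM gave 30 genes adjusted (from 0) for HeyA8 family. Library size alone in place of TMM turned RRM2B -0.0045 for SKOV3 family. Library size alone in place of TMM gave 4 genes adjusted (from 0) for any family difference. Library size alone in place of TMM turned POLH -0.014 for resistant minus sensitive. Isogenic family as the block gave 438 genes unadjusted (from 217), 2 members unadjusted (from 0) for resistant minus sensitive. No replicate block gave 104 genes unadjusted (from 606) for vehicle level, and turned RPS27L -0.048, TP53INP1 0.70, XPC 0.24.

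Leaving out 1 cell line in turn, or 1 family for the vehicle level, gave these ranges; where a group keeps 1 line the fit assumes it varies like the others. For resistant lines the ranges were POLH -0.28 to 0.28, TIGAR -0.35 to 0.65, TP53INP1 -0.21 to 1.09, XPC -0.23 to 0.43, ZMAT3 -0.21 to 0.68, genes unadjusted 416 to 1376, members unadjusted 1 to 3. For sensitive lines the ranges were FDXR -0.44 to 0.46, POLH -0.21 to 0.19, genes adjusted 0 to 18, genes unadjusted 808 to 2012, members unadjusted 2 to 5. For HeyA8 family the ranges were FDXR -0.36 to 0.77, POLH -0.60 to 0.30, TIGAR -0.26 to 1.35, TP53INP1 -0.13 to 1.15, XPC -0.13 to 0.35, ZMAT3 -0.0059 to 0.27, genes adjusted 0 to 518, members adjusted 0 to 3. For OV2008 family the ranges were FDXR -0.79 to 0.054, POLH -0.51 to 0.52, genes adjusted 3 to 1677, genes unadjusted 1553 to 4463, members adjusted 0 to 7, members unadjusted 4 to 8. For SKOV3 family the ranges were FDXR -0.092 to 0.0096, GDF15 -0.43 to 0.73, TIGAR -0.58 to 1.001, TP53INP1 -0.33 to 0.11, XPC -0.35 to 0.15, genes adjusted 0 to 31, genes unadjusted 553 to 1331, members unadjusted 0 to 1. For all lines the ranges were FDXR -0.24 to 0.10, POLH -0.14 to 0.085, RRM2 -0.074 to 0.18, genes adjusted 0 to 1. Over all lines, genes unadjusted ran from 2033 to 3103 and members unadjusted from 4 to 6. For any family difference the ranges were genes adjusted 0 to 760, genes unadjusted 1552 to 3642, members adjusted 0 to 5, members unadjusted 3 to 7. For resistant minus sensitive the ranges were DDB2 -0.45 to 0.18, FDXR -0.58 to 0.31, POLH -0.23 to 0.33, RRM2B -0.11 to 0.82, TP53INP1 -1.04 to 0.26, XPC -0.54 to 0.13, ZMAT3 -0.44 to 0.45, genes unadjusted 187 to 540, members unadjusted 0 to 3. For vehicle level the ranges were GDF15 -0.30 to 0.70, RPS27L -0.069 to 0.26, RRM2B -0.24 to 0.079, TIGAR -0.17 to 1.33, TP53INP1 -1.78 to 0.47, XPC -0.31 to 0.21, members unadjusted 0 to 2.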
